A study of Mus musculus with 8 samples.

Results

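The heavy polysome arrays of this series compared 2 kinds of lymph node stromal cell: cells in which Eif4g3 had been silenced by siRNA, and cells given a control siRNA. The RNA was taken from the bottom of a sucrose gradient, where mRNAs with a high ribosome load collect. Genes were included if, on 3 or more of the 4 heavy polysome arrays, either channel of their probe was well above background, which held for 20479 of 41174 non-control probes. With the brightest probe standing for its gene, these were 13838 of the 27573 genes on the array, and 12364 of them had a RefSeq name. The cells were stromal cells of BALB/c mice grown in culture, and 7 plates received each siRNA (400 pmol). They were collected after 48 h, pooled, and spun through a sucrose gradient of 10% to 60% for the polysome samples. On each of the 4 arrays, labelled replicates 1 to 4, Cy5 carried heavy polysome RNA of Eif4g3 siRNA cells and Cy3 that of control siRNA cells. A further 4 arrays compared total RNA of the same 2 treatments in the same orientation.

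Translation of most mRNAs starts at the cap, where the complex eIF4F assembles. Its subunit eIF4E binds the cap, the helicase eIF4A unwinds the leader, and a scaffold of the eIF4G family joins both to the poly(A)-binding protein and, through eIF3, to the small ribosomal subunit. Eif4g3 encodes a relative of the better known scaffold eIF4G1. The heavier an mRNA is loaded with ribosomes, the deeper it travels into a gradient, so the amount of a transcript in heavy polysomes depends both on how much of it the cell holds and on how densely it is translated. Lymph node stromal cells are the fibroblast-like and vascular cells that build the scaffold of the node, and they secrete matrix, chemokines and growth factors.

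Values are on the log2 scale, Eif4g3 siRNA relative to control siRNA, and are given on arrays 1 to 4 in that order and as mean ± SD (n = 4 arrays), and adjusted p is that of limma with Benjamini-Hochberg correction over 14474 genes. A call is an adjusted p under 0.05. Equal RNA mass was labelled (200 ng), so a ratio tells how a transcript's share of the labelled RNA changed, and fewer cells of a type cannot be told apart from less RNA per cell. No dyes were swapped, so unequal labelling of a probe by the dyes cannot be told apart from a change of its transcript. Total RNA had the same dye orientation, so such a bias would take the same sign in both fractions and drop out of their difference. The labels do not say whether the replicates came from separate cultures, and the p-values then measure only the spread between these arrays, which may be technical. Arrays 2 and 4 were alike (Pearson's r = 0.883 across genes), whereas the other pairs of heavy polysome arrays correlated at 0.160 to 0.459. Ratios also spread more widely on arrays 1 and 3 (SD over genes 0.534 and 0.500) than on arrays 2 and 4 (0.319 and 0.329). Arrays 1 and 2 shared a slide, as did 3 and 4. Arrays 1 and 3 lay in the same position of their slides (r = 0.160), and so did arrays 2 and 4. Arrays 2 and 4 correlated at 0.547 to 0.735 with total RNA arrays 1 to 3, and at 0.265 and 0.410 with total RNA array 4. The part of slide position in these values was not tested. Each array holds both treatments, so the values by array are also those within a slide. Feature Extraction's processed signals, which the scanner software had background-subtracted and dye-normalised, and the mean over all probes of a gene were run as alternatives. Where either moved a called mean by over 1.5 times, its value is given at the end of the paragraph.

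The cells carried the marks of fibroblastic stroma. Of 12 fibroblastic reticular and stromal markers, 11 were measured in heavy polysome RNA, among them the glycoprotein podoplanin (Pdpn), Thy1, Pdgfrb and the collagen I genes, while the chemokine gene Ccl19 was not above background. Of 5 lymphatic endothelial markers 0 were measured, and of 6 blood endothelial markers 1. For other cell types, 6 of 10 macrophage, 2 of 6 T lymphocyte, 1 of 4 B lymphocyte, 2 of 4 epithelial and 3 of 3 muscle markers were measured.

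The siRNA target was the lowest called gene with the processing used here, and Gna14 was lower with Feature Extraction's processed signals (-2.89 against -2.57 for Eif4g3) and in the series matrix (-2.86 against -2.54). Eif4g3, read by probe A_52_P637573 (mm8 chromosome 4, 137478284 to 137478343), stood at -3.16, -2.24, -2.43 and -2.0 on the 4 arrays. It was lower on each of them, and lowest on array 1. Its transcript was 5.49-fold lower in heavy polysomes (-2.46 ± 0.50, adjusted p = 0.000607, 95% interval -2.85 to -2.06). The other Eif4g3 probe, A_51_P438363, gave -2.25, -2.33, -1.78 and -1.92 (-2.07 ± 0.26). In total RNA the main probe gave -2.07 ± 0.29, and the difference between fractions was -0.39 (95% interval -0.95 to 0.18, unadjusted p = 0.155).

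Among the 13838 measured genes, 1290 were called (9.32%), 706 of them higher (5.10%) and 584 lower (4.22%). A fold of at least 1.5 was reached by 680 genes (4.91%), 391 higher (2.83%) and 289 lower (2.09%), and a fold of at least 2 by 91 (0.658%), 63 higher (0.455%) and 28 lower (0.202%). In 7388 genes (53.4%) the mean ratio was above 0. The median ratio of all measured genes was 0.02, the range from the 5th to the 95th percentile was -0.48 to 0.52, and the median SD between arrays was 0.27. A ratio of the same sign on all 4 arrays was found for 4478 genes (32.4%). The share called was 3.35% among the 3459 dimmest genes by signal and between 10.2% and 12.5% in the 3 brighter groups of that size. Of the called genes, 35.2% had their largest ratio on array 1, 8.37% on array 2, 42.6% on array 3 and 13.8% on array 4. For 309 genes called with a fold of at least 1.5, a further measured probe of the gene gave the same sign in 276 (89.3%). These probes were less changed, with a median of 0.32 against 0.73 for the probes that represented those genes. The count of calls was 337 when array 4 was left out and 542 when array 2 was, against 1059 and 1268 when arrays 3 and 1 were. It was 867 on leaving out array 2 of total RNA, and 322 genes kept their call without each of the 8 arrays in turn. Arrays 1 and 2 alone gave 21 calls and arrays 3 and 4 alone 220, while arrays 1 and 3 gave 103 and arrays 2 and 4 gave 593. Centring each array on the median of its tested genes in place of loess gave 196 calls, 86 higher and 110 lower, and centring on all spots gave 0 (370 at an unadjusted p under 0.05).

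**Figure D1:**
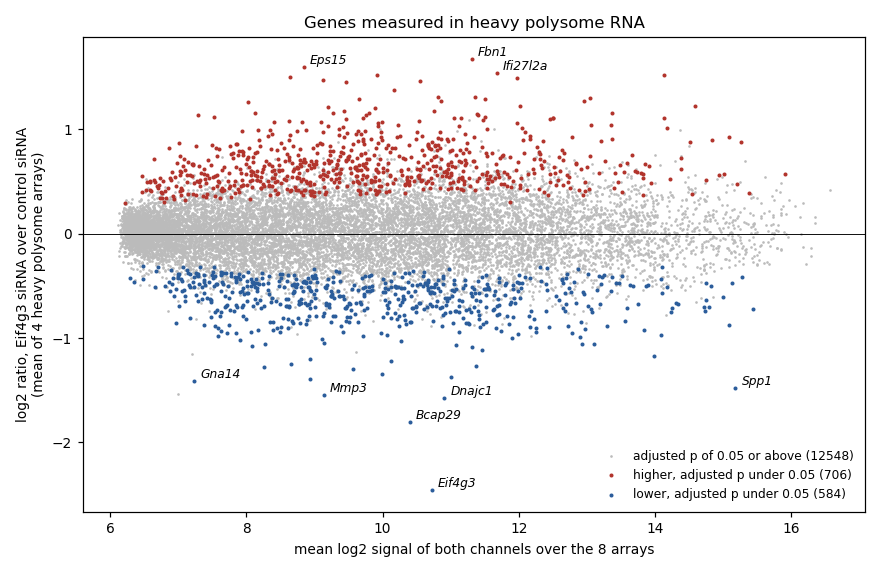
Mean log2 ratio of Eif4g3 siRNA over control siRNA on the 4 heavy polysome arrays (vertical axis) against the mean log2 signal of both channels (horizontal axis) for the 13838 measured genes. Red points are the 706 genes called higher and blue points the 584 called lower, and Eif4g3 is the lowest called gene.

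The 20 highest called genes with a RefSeq name and the same sign on all arrays ran from 1.23 to 1.68, and 19 of them kept their call without each single array. Fbn1, which encodes fibrillin 1 of the elastic microfibrils, led with 1.94, 1.1, 2.28 and 1.38 (3.19-fold, 1.68 ± 0.54, adjusted p = 0.00284, mm8 chromosome 2, 124992432 to 124992491). It was higher on all arrays, least so on array 2. Eps15, an adaptor of clathrin-coated pits, stood at 0.93, 1.69, 2.05 and 1.70 (1.59 ± 0.47, adjusted p = 0.00227), and its lowest value came from array 1. Ifi27l2a, an interferon-inducible gene, gave 1.04, 1.78, 1.60 and 1.73 (1.54 ± 0.34, adjusted p = 0.00310), with arrays 2 and 4 highest. The connexin 26 gene Gjb2 gave 0.97, 1.25, 2.16 and 1.71 (1.52 ± 0.52, adjusted p = 0.00408). Ywhah, a 14-3-3 adaptor that binds phosphorylated proteins, gave 2.15, 1.14, 1.53 and 1.24 (1.52 ± 0.46, adjusted p = 0.00203). Array 1 was the highest for Ywhah and the lowest for Gjb2. Ss18, a subunit of the BAF chromatin remodelling complex, gave 1.54, 1.42, 1.1 and 1.92 (1.5 ± 0.34), and Chmp3, a subunit of the membrane-cutting ESCRT-III complex, gave 2.04, 1.17, 1.40 and 1.27 (1.47 ± 0.39). Ccng2, the gene of the unconventional cyclin G2, gave 1.25, 1.34, 1.64 and 1.58 (1.45 ± 0.19), with a narrow spread over the arrays. Gjb2 was at 1.01 as the mean of all its probes.

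The values of several other genes in that group lay close together on all arrays. Pias2, an E3 ligase of the SUMO pathway, gave 1.36, 1.24, 1.39 and 1.16 (adjusted p = 0.000607). Pqlc3 gave 1.54, 1.30, 1.76 and 1.42 (adjusted p = 0.000607), and Cnrip1, the gene of a protein that binds the cannabinoid receptor tail, gave 1.36, 1.25, 1.56 and 1.32 (adjusted p = 0.000742). For these 3 genes the lowest array stood above 1.1. Selenof, a selenoprotein of the endoplasmic reticulum, gave 1.51, 1.04, 1.28 and 1.37, and Trnau1ap, which takes part in the synthesis of selenoproteins by binding the selenocysteine tRNA, gave 1.22, 1.09, 1.35 and 1.24. Abhd17a, which removes palmitate from membrane proteins, gave 1.45, 1.26, 1.1 and 1.42, and Dcaf11, a substrate receptor of a cullin ubiquitin ligase, gave 1.76, 1.12, 1.13 and 1.23. The transcription factor gene Atf1 gave 1.78, 0.92, 1.25 and 1.14, and Aldh1a3, an enzyme that makes retinoic acid, gave 1.40, 0.87, 1.64 and 1.26. Fam8a1 spread widely, with 2.52 on array 1 and 0.94 to 1.36 on the others. Plp2 (1.27 ± 0.48), a membrane protein gene, and Exoc4 (1.26 ± 0.56), a subunit of the exocyst that tethers secretory vesicles, complete the group. Exoc4 lost its call without heavy array 4 (adjusted p = 0.0650). In total RNA all 20 lay in the same direction and 17 were called. Pias2 and Cnrip1 were at 0.79 and 0.84 as the mean of all their probes.

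The 20 lowest, chosen in the same way, ran from -1.06 to -2.46, and 12 of them kept their call without each single array. After Eif4g3 came Bcap29, whose product sits in the endoplasmic reticulum membrane, at -0.25, -2.04, -2.80 and -2.14 (3.50-fold lower, -1.81 ± 1.09, adjusted p = 0.0133, mm8 chromosome 12, 32181568 to 32181627). Arrays 2 to 4 were low for Bcap29 and array 1 was the least changed. Dnajc1, a co-chaperone in the membrane of the same compartment, gave -1.81, -1.47, -1.66 and -1.36 (2.98-fold lower, -1.58 ± 0.20, adjusted p = 0.000742), low on all arrays. Further probes of Dnajc1 gave -1.55 ± 0.54 and -1.05 ± 0.59. Mmp3, the protease stromelysin 1, gave -2.61, -0.66, -1.59 and -1.32 (-1.55 ± 0.81, adjusted p = 0.00879), and the osteopontin gene Spp1 gave -0.78, -1.1, -2.66 and -1.37 (-1.48 ± 0.83, adjusted p = 0.0150). Mmp3 was lowest on array 1 and Spp1 on array 3. Gna14, a G protein alpha subunit, gave -0.67, -1.57, -1.57 and -1.84 (adjusted p = 0.00332), and its Cy5 signal was well above background on 3 of the 4 arrays. Its mean was -1.41 ± 0.51 here and -2.86 in the series matrix. Neurl4, a protein of the centriole, gave -1.33, -1.21, -1.67 and -1.28 (adjusted p = 0.000869), and the sulphate transporter gene Slc26a11 gave -1.04, -1.25, -1.61 and -1.21 (adjusted p = 0.00246). Both were low on all arrays. Gna14 was at -2.89 with processed signals.

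Several enzymes of lipid and nucleotide metabolism stood among the 20. Nceh1, which hydrolyses cholesterol esters, gave -0.50, -1.47, -1.80 and -1.59 (adjusted p = 0.00606), and the cholesterol exporter gene Abcg1 gave -0.74, -1.38, -1.30 and -1.56 (adjusted p = 0.00550). For both, array 1 was the least changed. Ctps2, which makes CTP, gave -1.11, -0.99, -1.94 and -1.01, and Abhd4, a lipase of N-acyl phospholipids, gave -0.68, -1.49, -1.14 and -1.39. The secreted proteins in the group were the long pentraxin Ptx3 (-1.22 ± 0.37), Fetub (-1.20 ± 0.49), the plasminogen activator Plat (-1.08 ± 0.55) and autotaxin, encoded by Enpp2 (-1.07 ± 0.64), which makes lysophosphatidic acid. The chromatin protein gene Hmgn3 (-1.30 ± 0.80), the myeloid receptor gene Trem2 (-1.39 ± 0.71), Ctla2a (-1.11 ± 0.73) and Lrmda (-1.06 ± 0.70) were also lower. Hmgn3, Trem2, Ctla2a and Enpp2 were all lowest on array 3. Spp1, Trem2, Hmgn3, Ctla2a and Plat lost their calls without heavy array 4 (adjusted p from 0.0513 to 0.0676). Bcap29 lost its call without heavy array 2 or 4 (adjusted p from 0.0536 to 0.0687). Enpp2 lost its call without heavy array 2, 3 or 4 (adjusted p from 0.0532 to 0.0867). Lrmda lost its call without heavy array 1, 3 or 4 (adjusted p from 0.0635 to 0.0851). In total RNA all 20 lay in the same direction and 15 were called.

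**Figure D2:**
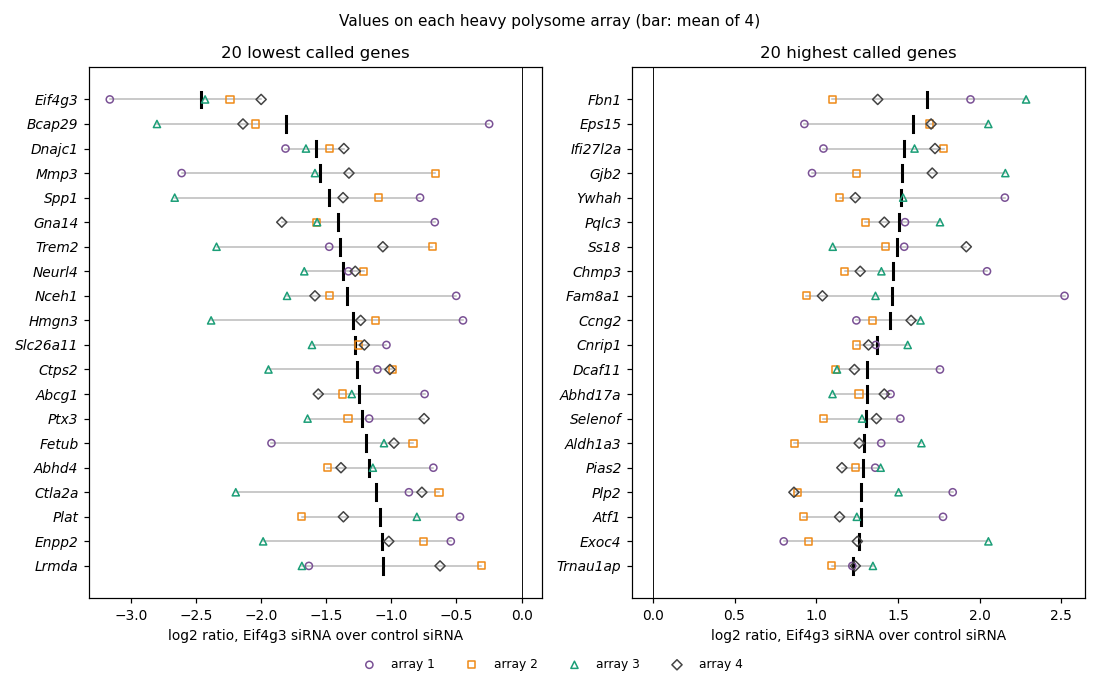
Log2 ratio of Eif4g3 siRNA over control siRNA (horizontal axes) on each heavy polysome array for the 20 lowest (left) and 20 highest (right) called genes. Genes were chosen among those with a RefSeq name and the same sign on all arrays, so every value lies on the same side of 0 as its mean. Symbols are the 4 arrays and the black bar is their mean. Bcap29 reaches from -2.80 on array 3 to -0.25 on array 1.

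The called genes that varied least between arrays, with a fold of at least 1.5, gave nearly the same ratio on all 4. Rab28, a small GTPase of vesicle traffic and cilia, gave 1.03, 1.1, 1.08 and 1.09 (adjusted p = 0.00227), and Elmod2, a regulator of small GTPases, gave 0.80, 0.78, 0.87 and 0.90 (adjusted p = 0.0111). Ppfibp2 gave 0.76, 0.69, 0.60 and 0.71, Abi2, a subunit of the actin-regulating WAVE complex, gave 0.66, 0.66, 0.78 and 0.64, and Popdc2 gave 0.62, 0.60, 0.63 and 0.61. Among lower genes, Ulk3, a kinase related to the autophagy kinases, gave -0.92, -0.88, -0.78 and -0.82 (adjusted p = 0.00336), and the nuclear pore gene Nup98 gave -0.74, -0.88, -0.90 and -0.88 (adjusted p = 0.00469). Vps11, a subunit of the complexes that tether endosomes and lysosomes, gave -0.60, -0.57, -0.64 and -0.58, Tmem101 gave -0.68, -0.58, -0.66 and -0.54, and Ppip5k2, a kinase of inositol pyrophosphates, gave -0.57, -0.55, -0.70 and -0.57. The other Vps11 probe gave -0.62 ± 0.32, whereas 2 further probes of Nup98 gave -0.13 ± 0.40 and 0.08 ± 0.12. Elmod2 and Popdc2 lost their calls without heavy array 4 (adjusted p from 0.0564 to 0.0601). Nup98 and Ppip5k2 were at -0.30 and -0.38 as the mean of all their probes.

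To describe the ribosome-loaded pool by function, 45 lists of genes were counted. They held 1886 measured genes, of which 106 were called higher and 108 lower (11.3%, against 9.32% of all measured genes). The lists were written with earlier results of these data known, so a larger share of calls in them may be built in. In the 3 brighter groups of measured genes the share called was 10.2% to 12.5%. At least 1 gene was called in 44 of the lists, more genes were lower than higher in 18 and more were higher than lower in 20. Among lists with at least 10 measured genes, calls went only upward in 6 and only downward in 6. The sign of a list's median changed under another scaling of the arrays in 13 lists and held in 32, and directions are given only for the latter. Not every list is described. Those described have their counts given, and some of them their medians, with no test of the list. For all measured genes these were 5.10% higher, 4.22% lower and a median of 0.02.

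**Figure D3:**
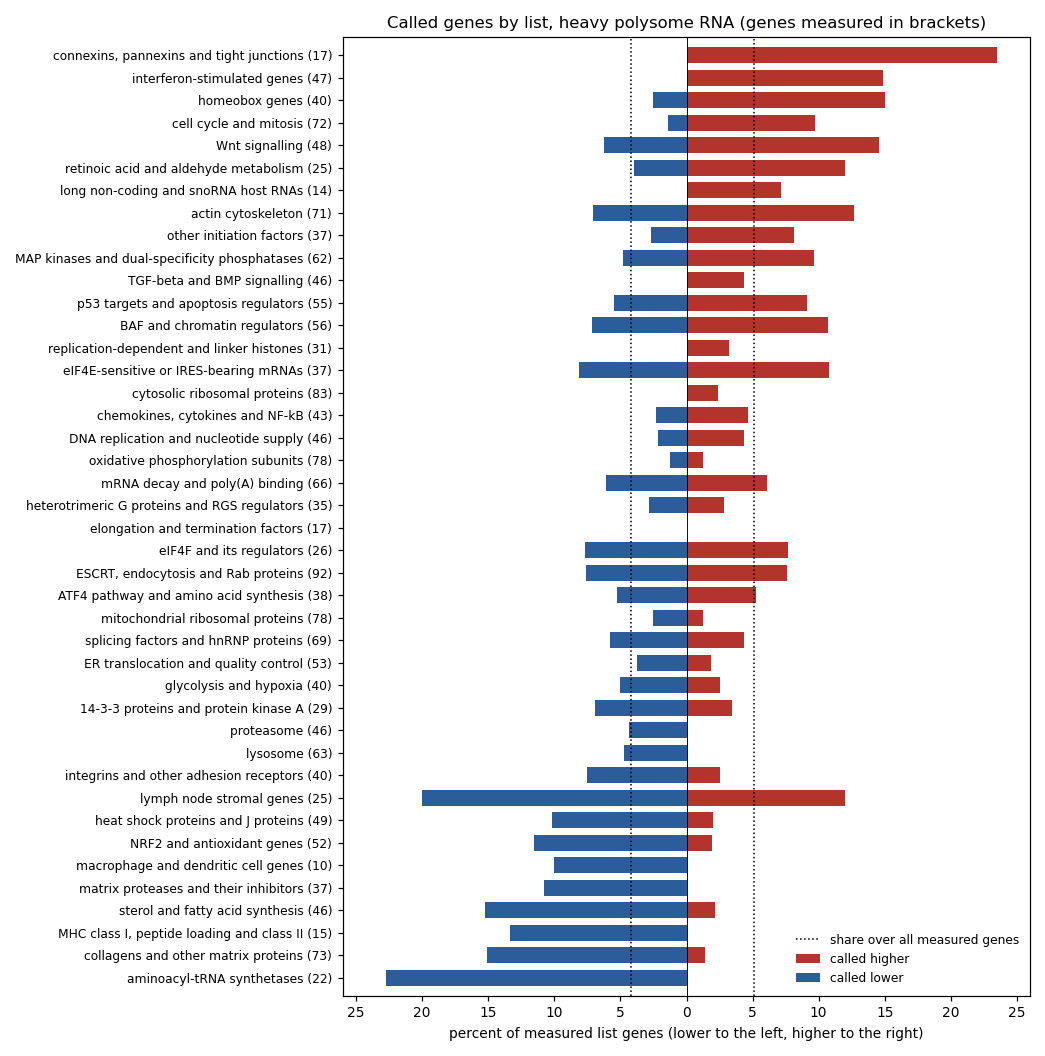
Share of each list's measured genes called higher (red, to the right) and called lower (blue, to the left) in heavy polysome RNA, in percent, for lists with at least 10 measured genes, whose number stands in brackets. Dotted lines mark the shares over all measured genes, 5.10% higher and 4.22% lower; aminoacyl-tRNA synthetases and connexins lie at the 2 ends.

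Apart from Eif4g3, 3 of 26 eIF4F genes and regulators were called. Eif4e2, a cap-binding relative of eIF4E, rose, with 1.07, 1.19, 0.80 and 1.31 (1.09 ± 0.22, adjusted p = 0.00935), and 3 further probes gave means of 0.49 to 0.73. Mtor, the kinase that frees eIF4E from its inhibitors, rose (0.26, 0.53, 1.15 and 0.65, 0.64 ± 0.37, adjusted p = 0.0188), though another Mtor probe gave -0.33 ± 0.16. Eif4a1, the helicase subunit, fell slightly but evenly (-0.25, -0.36, -0.33 and -0.34, adjusted p = 0.0417), and its other probes gave -0.01 ± 0.06 and -0.58 ± 0.09. The paralogous scaffolds went both ways across arrays. Eif4g1 gave 0.37, -0.37, 0.40 and -0.42 (adjusted p = 0.994), with arrays 1 and 3 above 0 and arrays 2 and 4 below, and Eif4g2 gave 0.93, -0.08, -0.72 and -0.05 (adjusted p = 0.967). The cap-binding Eif4e gave 0.14 ± 0.43 (adjusted p = 0.687) and the poly(A)-binding protein gene Pabpc1 -0.54 ± 0.54 (adjusted p = 0.0913). Eif4e2 lost its call without heavy array 4 (adjusted p = 0.0570). Mtor lost its call without heavy array 2 or 4 (adjusted p from 0.0535 to 0.0796). Eif4a1 lost its call without heavy array 1, 2, 3 or 4, or total array 1, 2 or 3 (adjusted p from 0.0563 to 0.151). Mtor was at 0.16 and not called as the mean of all its probes (adjusted p = 0.201).

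Of 37 other initiation factor genes, 3 rose and 1 fell. Eif1ax, which helps the scanning ribosome find the start codon, gave 0.40 ± 0.24, and the eIF3 subunit gene Eif3j1 gave 0.44 ± 0.24, while a further Eif3j1 probe gave -0.21 ± 0.80. Of the kinases that halt initiation by phosphorylating eIF2, Eif2ak2, which senses double-stranded RNA, rose (0.54, 0.39, 0.80 and 0.43), and Eif2ak4, which senses uncharged tRNA, fell (-0.54, -0.30, -0.73 and -0.45, adjusted p = 0.0241). Eif2ak2 lost its call without heavy array 2, 3 or 4 (adjusted p from 0.0568 to 0.0751). Eif2ak4 lost its call without heavy array 1, 2, 3 or 4 (adjusted p from 0.0502 to 0.0873). Eif3j1 lost its call without heavy array 1, 3 or 4, or total array 2 or 3 (adjusted p from 0.0521 to 0.0754). Eif1ax lost its call without heavy array 1, 2, 3 or 4, or total array 1, 2 or 3 (adjusted p from 0.0589 to 0.110). Eif1ax was at 0.17 and not called with processed signals (adjusted p = 0.348). Eif2ak4 was at -0.31 as the mean of all its probes. Eif3j1 was at 0.10 and not called as the mean of all its probes (adjusted p = 0.439).

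Ribosomal protein genes, whose mRNAs carry a pyrimidine-rich start that ties their translation to mTOR, were called in 2 of 83 cases, Rpl41 (0.57, 0.58, 0.54 and 0.58, adjusted p = 0.00936) and Rps27l (0.15, 0.44, 0.44 and 0.48, adjusted p = 0.0258). Their median over the 4-array means was 0.01. By array it was -0.57, 0.31, 0.06 and 0.26, so array 1 was low and arrays 2 and 4 were high. The 78 subunits of the respiratory chain had the same order of arrays (-0.37, 0.22, 0.06 and 0.18), with 1 called higher (Uqcrh, 0.47 ± 0.11) and 1 lower (Ndufb9, -0.70 ± 0.25). The replication-dependent histones followed it as well (-0.18, 0.46, 0.18 and 0.40, 31 genes), and the linker histone gene H1f2 rose (0.89, 0.48, 0.63 and 0.53, adjusted p = 0.00550). The histone list had a median of 0.19 over the 4-array means, with 26 genes above 0. Of 78 mitochondrial ribosomal protein genes, 1 rose (Mrps24, 0.49 ± 0.21) and 2 fell. Rpl41 lost its call without heavy array 4 (adjusted p = 0.0537). Mrps24 lost its call without heavy array 2 or 4 (adjusted p from 0.0873 to 0.0989). Rps27l lost its call without heavy array 2, 3 or 4, or total array 2 (adjusted p from 0.0505 to 0.124). Uqcrh lost its call without heavy array 1, 2, 3 or 4, or total array 2 or 3 (adjusted p from 0.0596 to 0.108). Uqcrh was at 0.31 and not called with processed signals (adjusted p = 0.147).

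Aminoacyl-tRNA synthetases, the enzymes that load each tRNA with its amino acid, had the largest share of lower genes among lists with at least 10 measured genes. Of 22 measured, 5 fell and 0 rose, with a median of -0.30 and 5 genes above 0. The list median was below 0 on every array (-0.08, -0.36, -0.46 and -0.34), least so on array 1, and it stayed between -0.35 and -0.29 under the other scalings of the arrays. Lars, which charges leucine tRNA, gave -1.54, -0.76, -0.70 and -0.54 (-0.88 ± 0.44, adjusted p = 0.0143), and further probes gave -0.77 ± 0.33 and -0.71 ± 0.45. Wars, for tryptophan, gave -0.61, -0.59, -1.21 and -0.57 (-0.74 ± 0.31, adjusted p = 0.00698). Sars, for serine, gave -0.78, -0.49, -0.30 and -0.42, Cars, for cysteine, -0.67, -0.54, -0.20 and -0.55, and Aars, for alanine, -0.56, -0.94, -0.32 and -0.86 (adjusted p = 0.0169, 0.0388 and 0.0307). The probes that stand for these 5 genes were below 0 on all arrays. A further probe was above 0 on array 1 for Aars (0.64, -0.83, -1.01 and -0.86) and for Wars (0.45, -0.36, -0.80 and -0.39). Further Cars probes gave 0.17, -0.57, 0.08 and -0.54, and -0.40, -0.17, -0.69 and -0.15. Eprs gave -0.56 ± 0.48 (adjusted p = 0.0862), Mars1 -0.14 ± 0.23, Kars 0.06 ± 0.34 and Yars 0.03 ± 0.45, and these 4 were not called. Further Eprs probes gave -0.32 ± 0.31, -0.72 ± 0.28 and -0.54 ± 0.10. Eprs was called as the mean of all its probes (-0.54, adjusted p = 0.00777) and with processed signals (-0.62, adjusted p = 0.0164). Sars lost its call without heavy array 2 or 4 (adjusted p from 0.0627 to 0.0650). Aars lost its call without heavy array 2 or 4, or total array 2 or 3 (adjusted p from 0.0509 to 0.131). Cars lost its call without heavy array 1, 2 or 4, or total array 2 or 3 (adjusted p from 0.0590 to 0.141).

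Several of these synthetase genes are known targets of the transcription factor ATF4, which acts through the amino acid response element. The letters TGATGNAA were searched on both strands of RefSeq promoter windows (GRCm38.p6, 250 bases before to 50 bases after the start site). They stood in 5 of the 15 measured synthetase genes with a window (33.3%), against 2.81% of all measured genes with a window. Of all 32851 windows, 3.97% held them. Among synthetase genes that were not called, 4 of 13 with a window held them (30.8%). Of the 5 called genes 2 had a window: Aars held the letters at 2 places and Sars at 0. The Aars sites are shown because this gene was both called and carried the element. They lie upstream of the start (chr8:111033710-111033757, plus strand) and just inside the transcript (chr8:111033846-111033863), with the match in capitals on the strand of the gene, where it reads as the reverse complement:
Aars, upstream: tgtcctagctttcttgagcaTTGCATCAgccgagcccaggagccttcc
Aars, start of transcript: tcactTTTCATCAgagcg
Calls among the 38 measured genes of the ATF4 pathway and amino acid synthesis went both ways: 2 rose (Atf3, 0.57 ± 0.30, and Ppp1r15b, 0.49 ± 0.31) and 2 fell (Cebpb, -0.55 ± 0.29, and Vldlr, -0.52 ± 0.24). The list median was -0.15 (between -0.21 and -0.13 under the other scalings), with 14 genes above 0. By array the median was 0.086, -0.155, -0.288 and -0.072. Atf4 itself stood at 1.64, 0.21, -0.15 and 0.33 (adjusted p = 0.305), high on array 1, and Asns (-0.28 ± 0.24), Ddit3 (0.17 ± 0.66) and Trib3 (-0.30 ± 0.09) were not called. Ppp1r15b and Cebpb lost their calls without heavy array 1, 2 or 4, or total array 2 or 3 (adjusted p from 0.0553 to 0.125). Atf3 lost its call without heavy array 1, 2, 3 or 4, or total array 2 (adjusted p from 0.0542 to 0.0843). Vldlr lost its call without heavy array 2, 3 or 4, or total array 1 or 2 (adjusted p from 0.0510 to 0.166). Vldlr was at -0.82 with processed signals.

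Interferon-stimulated genes were called only upward. Of 47 measured, 7 rose and 0 fell (14.9%), and the median was 0.17, with 32 genes above 0. The list median was between 0.18 and 0.24 under the other scalings of the arrays. By array it was -0.06, 0.45, 0.09 and 0.43, so the list stood above 0 on arrays 2, 3 and 4 and slightly below on array 1. After Ifi27l2a came Ifih1, a sensor of long double-stranded RNA, with 0.18, 1.01, 1.22 and 0.66 (0.77 ± 0.46, adjusted p = 0.0153), and Parp12, an ADP-ribosyltransferase that restricts viruses, with 0.49, 0.69, 0.53 and 1.18 (0.72 ± 0.32). Oasl1 gave 0.04, 0.96, 0.42 and 0.82, the interferon regulatory factor gene Irf7 0.38, 0.89, 0.43 and 0.54, the kinase gene Eif2ak2 0.54, 0.39, 0.80 and 0.43, and Ifit1, whose protein binds foreign capped RNA, 0.23, 0.98, 0.39 and 0.54. The Cy3 signal of Irf7 was well above background on 3 of 4 arrays. In 6 of the 7 genes, all but Eif2ak2, array 1 was the lowest. Other members that respond to interferon were not called: Isg15 spread from -1.06 on array 1 to 1.30 on array 2 (adjusted p = 0.631) and the chemokine gene Cxcl10 gave -0.46, 0.60, 1.01 and 1.14 (adjusted p = 0.153). Ifih1 lost its call without heavy array 2 or 4 (adjusted p from 0.0608 to 0.0671). Eif2ak2 lost its call without heavy array 2, 3 or 4 (adjusted p from 0.0568 to 0.0751). Parp12 and Ifit1 lost their calls without heavy array 2, 3 or 4, or total array 2 (adjusted p from 0.0525 to 0.144). Oasl1 and Irf7 lost their calls without heavy array 2, 3 or 4, or total array 2 or 3 (adjusted p from 0.0502 to 0.158). Irf7 was at 0.93 with processed signals.

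The promoters of this list are shown because its called genes moved the same way and such genes are known for the interferon-stimulated response element. It was searched on both strands as a pair of GAAA with any 2 bases between them, and stood in 18 of 34 measured list genes with a window (52.9%), against 3.44% of all windows and 3.58% of measured genes with a window. Among the called genes with a window, Ifit1, Eif2ak2 and Ifih1 held it, and Irf7, Oasl1 and Parp12 did not. Of the list's genes that were not called and had a window, 15 of 28 held it (53.6%), so these shares were nearly equal. The Ifit1 stretch lies upstream of the start (chr19:34640765-34640833, plus strand) with matches that begin 104 and 85 bases before it, and those of Eif2ak2 (chr17:78882540-78882559, minus strand) and Ifih1 (chr2:62646209-62646228, minus strand) lie just inside the transcript, with the element in capitals:
Ifit1: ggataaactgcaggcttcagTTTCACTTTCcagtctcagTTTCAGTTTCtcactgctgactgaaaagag
Eif2ak2: gccggGAAAACGAAAcagaa
Ifih1: gaatcGAAACAGAAAccgat

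**Figure D4:**
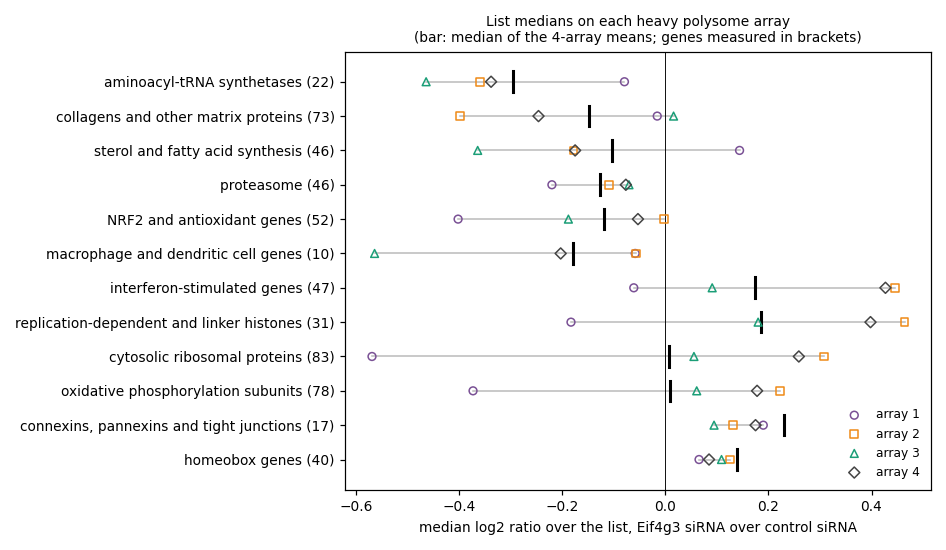
Median log2 ratio of Eif4g3 siRNA over control siRNA (horizontal axis) over the measured genes of 12 lists on each heavy polysome array (symbols), with the median of the 4-array means as a bar and the number of measured genes in brackets. Aminoacyl-tRNA synthetases lie below 0 on all arrays, and cytosolic ribosomal proteins, respiratory subunits, histones and interferon-stimulated genes lie below 0 on array 1 alone.

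Matrix proteins, which fibroblastic stroma secretes in bulk, were called mostly downward. Of 73 measured collagens and other matrix proteins, 11 fell and 1, Fbn1, rose (16.4%), and the median was -0.15, with 22 genes above 0. By array the median was -0.02, -0.40, 0.02 and -0.25, so arrays 2 and 4 were low and arrays 1 and 3 near 0. Under the other scalings the median was between -0.19 and -0.11. Col18a1, a collagen of basement membranes, gave -1.47, -0.72, -0.87 and -0.72 (-0.95 ± 0.36, adjusted p = 0.00448), and the fibril collagen gene Col5a3 gave -0.92, -0.63, -0.85 and -0.68 (-0.77 ± 0.14, adjusted p = 0.00338). The collagen I genes Col1a1 (-1.14, -0.62, -0.27 and -0.65) and Col1a2 (-0.45, -0.30, -0.52 and -0.40) fell, as did Nid1, which links laminin to collagen IV (-0.71 ± 0.34), and Tnxb, which spaces collagen fibrils (-0.69 ± 0.15). Col5a1 (-0.49 ± 0.14), Col15a1 (-0.41 ± 0.13), Sparcl1 (-0.51 ± 0.12) and Lama2 (-0.38 ± 0.12) also fell, and Spp1, given above, was the last of the 11. Of the most familiar fibroblast products, Col3a1 (-0.63, -0.79, 0.27 and -0.82), Fn1 (0.77, -0.68, -0.07 and -0.46), Dcn (-1.88, -0.16, -1.14 and -0.66) and Sparc (-0.50, -0.44, 0.24 and -0.39) were not called (adjusted p = 0.107, 0.798, 0.0553 and 0.233). Fn1 was high on array 1, and Col3a1 and Sparc were above 0 on array 3 alone. Tnxb lost its call without heavy array 4 (adjusted p = 0.0610). Nid1 and Sparcl1 lost their calls without heavy array 2 or 4 (adjusted p from 0.0740 to 0.0879). Col1a1 and Col5a1 lost their calls without heavy array 1, 2 or 4 (adjusted p from 0.0512 to 0.113). Col15a1 lost its call without heavy array 1, 2, 3 or 4, or total array 1 or 2 (adjusted p from 0.0529 to 0.135). Lama2 lost its call without heavy array 1, 2, 3 or 4, or total array 2 or 3 (adjusted p from 0.0705 to 0.169). Col1a2 lost its call without heavy array 1, 2, 3 or 4, or total array 1, 2 or 3 (adjusted p from 0.0616 to 0.144). Col15a1 was at -0.64 with processed signals. Col1a1 was at -0.41 and not called as the mean of all its probes (adjusted p = 0.0917).

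Of 37 matrix proteases and inhibitors, 4 fell and 0 rose: Mmp3, Plat and the aggrecan-cleaving protease genes Adamts1 (-0.82, -0.81, -0.78 and -0.65, adjusted p = 0.00501) and Adamts9 (-0.46, -0.87, -0.54 and -0.71, adjusted p = 0.00497). Of 40 adhesion receptors, 3 fell and 1 rose. Itga9, an integrin subunit, gave -0.78, -0.63, -1.15 and -0.63 (-0.80 ± 0.25, adjusted p = 0.00368), and Cdh13, a cadherin anchored without a cytoplasmic tail, gave -0.59, -0.61, -0.94 and -0.54 (-0.67 ± 0.18, adjusted p = 0.00557), while the syndecan gene Sdc3 rose (0.57, 0.36, 0.51 and 0.31, adjusted p = 0.0352). Genes of lymph node stroma went both ways, with 3 of 25 higher and 5 lower. Ly6a and Ly6c1, small surface antigens, rose (1.85, 1.07, 0.47 and 1.04 and 1.39, 0.82, 0.94 and 0.91, adjusted p = 0.00871 and 0.00310), as did the chemokine gene Cxcl12 (1.32, 0.80, 0.17 and 0.83), for which a further probe gave -0.48 ± 0.85. The aminopeptidase gene Anpep (-1.11, -0.68, -1.06 and -1.05, adjusted p = 0.00644) and the platelet-derived growth factor receptor genes Pdgfra (-0.46, -0.68, -0.75 and -0.70) and Pdgfrb (-0.69, -0.48, -0.41 and -0.30) fell, but a further Pdgfra probe gave 0.06 ± 0.20. Nes, a filament protein, fell as well (-0.57 ± 0.35). The 12 stromal markers named before gave 1 higher and 5 lower genes and a median of -0.47. Their summed signal on arrays 1 to 4 was 135000, 161800, 132500 and 128100 in Cy3 (control siRNA). In Cy5 (Eif4g3 siRNA) the sums were 119000, 135500, 109400 and 106800, below Cy3 on every array. The part of these markers in the matrix and stromal values was not tested. Pdpn (0.25 ± 0.21), Thy1 (0.10 ± 0.53), Ltbr (0.12 ± 0.42) and Vcam1 (-0.51 ± 0.44) were not called. Plat and Pdgfra lost their calls without heavy array 4 (adjusted p from 0.0513 to 0.0608). Cxcl12 lost its call without heavy array 2 or 4 (adjusted p from 0.0694 to 0.0866). Nes lost its call without heavy array 1, 2 or 4, or total array 2 (adjusted p from 0.0559 to 0.104). Sdc3 lost its call without heavy array 1, 2, 3 or 4, or total array 2 (adjusted p from 0.0615 to 0.0939). Pdgfrb lost its call without heavy array 1, 2, 3 or 4, or total array 2 or 3 (adjusted p from 0.0572 to 0.131). Adamts9 and Anpep were at -1.16 and -1.69 with processed signals. Adamts1, Adamts9, Itga9 and Pdgfra were at -0.46, -0.37, -0.48 and -0.29 as the mean of all their probes. Sdc3 and Cxcl12 were at 0.18 and 0.15 and not called as the mean of all their probes (adjusted p = 0.220 and 0.695).

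Markers of macrophages were read beside Spp1 and Trem2, which those cells also make. Of 25 macrophage and dendritic cell genes, 10 were measured and Trem2 was called, with 2 genes above 0. The list median was -0.06, -0.06, -0.56 and -0.20 on arrays 1 to 4, lowest on array 3, where Spp1 and Trem2 were also lowest. The summed signal of the 25 genes on arrays 1 to 4 was 7558, 5350, 5172 and 4864 in Cy3 (control siRNA). In Cy5 (Eif4g3 siRNA) the sums were 7327, 5077, 3260 and 4350, below Cy3 on every array and furthest on array 3. The defining genes Adgre1, Ctss, Itgax, Tyrobp, Ptprc and Itgam were not above background on any heavy polysome array, while Cd68 (-0.11, -0.09, -1.24 and -0.55), Csf1r (-0.04, -0.30, -0.64 and -0.45) and Lyz2 (0.37, 0.13, -0.35 and 0.04) were measured and not called. Their part in the Spp1 and Trem2 values was not tested. Spp1 and Trem2 lost their calls without heavy array 4 (adjusted p from 0.0567 to 0.0635).

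Sterol and fatty acid genes were called mostly downward, with 7 of 46 lower and 1 higher, a median of -0.10 (between -0.13 and -0.09 under the other scalings) and 0.14, -0.18, -0.36 and -0.17 by array. Acacb, an acetyl-CoA carboxylase that controls fatty acid oxidation, gave -1.30, -0.92, -0.71 and -0.88 (-0.95 ± 0.25, adjusted p = 0.00377), and Acly, which supplies cytosolic acetyl-CoA, gave -1.06, -0.78, -0.34 and -0.85 (-0.76 ± 0.31, adjusted p = 0.0126). Acacb was below 0 on every array, as was Acly. Srebf1, the transcription factor of lipid synthesis, gave -0.36, -0.50, -0.56 and -0.41 (adjusted p = 0.0112), and the cholesterol carrier Npc1 -0.18, -0.39, -0.52 and -0.48. Insig2, which retains that factor's precursor in the endoplasmic reticulum, rose (1.43, 0.46, 0.80 and 0.33, adjusted p = 0.0228). Nceh1 and Abcg1, given above, were also called. Hmgcs1 (-0.18 ± 0.34) and Fasn (-0.02 ± 0.46) were not called. The letters TCACNCCAC of the sterol response element, searched on both strands, stood in 1 of 32 measured list genes with a promoter window (3.12%). They stood in 0 of 5 called ones, in 1.44% of all measured genes with a window and in 1.24% of all windows. Insig2 lost its call without heavy array 3 (adjusted p = 0.0614). Acly and Srebf1 lost their calls without heavy array 2 or 4 (adjusted p from 0.0502 to 0.0649). Npc1 lost its call without heavy array 2, 3 or 4 (adjusted p from 0.0564 to 0.113). Insig2 was at 0.43 and not called as the mean of all its probes (adjusted p = 0.0514).

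Genes of the NRF2 antioxidant programme showed 6 lower and 1 higher of 52, with a median of -0.12 (-0.23 to -0.09 under the other scalings) and -0.40, 0.00, -0.19 and -0.05 by array. Akr1b8, an aldo-keto reductase, gave -1.30, -0.82, -0.90 and -0.86 (-0.97 ± 0.22, adjusted p = 0.00332). The glutathione transferase genes Gsta3 (-1.70, -0.36, -1.54 and -0.60), Gstp1 (-1.07, -0.21, -1.14 and -0.47) and Gsto1 (-0.49, -0.59, -1.23 and -0.65) fell, as did the epoxide hydrolase gene Ephx1 (-0.47 ± 0.22) and catalase, Cat (-0.48 ± 0.18), while the peroxidase gene Gpx8 rose (0.59 ± 0.25). Gsta3 and Gstp1 were lower on arrays 1 and 3 than on arrays 2 and 4. Of 40 glycolysis and hypoxia genes, 2 fell and 1 rose. Hk1, the hexokinase that starts glycolysis, gave -1.27, -0.89, -1.12 and -0.94 (-1.05 ± 0.17, adjusted p = 0.000869), with 3 further probes at means of -0.75 to -0.49. Gpi1, the next enzyme, gave -0.47 ± 0.16, and Pfkfb4, which sets the pace of glycolysis, rose (0.59 ± 0.32). Gsta3 and Gstp1 lost their calls without heavy array 1, 3 or 4 (adjusted p from 0.0531 to 0.0904). Ephx1 lost its call without heavy array 2, 3 or 4, or total array 2 (adjusted p from 0.0508 to 0.115). Gsto1 lost its call without heavy array 2, 3 or 4, or total array 2 or 3 (adjusted p from 0.0541 to 0.105). Cat, Gpx8, Gpi1 and Pfkfb4 lost their calls without heavy array 1, 2, 3 or 4, or total array 2 or 3 (adjusted p from 0.0561 to 0.129). Gpx8 was at 0.39 and not called with processed signals (adjusted p = 0.0550). Hk1 was at -0.60 as the mean of all its probes. Ephx1 was at -0.31 and not called as the mean of all its probes (adjusted p = 0.200).

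Among 49 heat shock and J proteins, 5 fell and 1 rose, with a median of -0.05 and 0.10, -0.12, -0.31 and -0.14 by array, above 0 on array 1 alone. Beside Dnajc1, the genes of the HSP110 family, which exchange nucleotides on HSP70, fell: Hsph1 (-0.40, -0.78, -0.82 and -0.88, adjusted p = 0.00525), Hspa4 (-0.46, -0.48, -1.05 and -0.46, adjusted p = 0.0189) and Hspa4l (-1.17, -0.67, -1.27 and -1.01, adjusted p = 0.0264). All 3 were below 0 on every array. The inducible HSP70 gene Hspa1a fell (-0.79, -0.62, -0.32 and -0.49), and the cochaperone gene Bag1 rose (1.46, 0.63, 0.14 and 0.57, adjusted p = 0.0479), most on array 1. The chaperone genes Hspa8 (-0.19 ± 0.41), Hsp90aa1 (-0.33 ± 0.37) and Hspa5 (-0.21 ± 0.07) were not called. Of 53 genes of the endoplasmic reticulum's translocation and quality control, 2 fell and 1 rose. The median was 0.11, and 0.42, -0.06, -0.19 and 0.01 by array, so array 1 was high and arrays 2 and 3 were below 0. The called genes were Bcap29, the lectin gene Os9, which marks misfolded glycoproteins for disposal (-1.07, -0.62, -0.63 and -0.63, adjusted p = 0.00799), and its partner Sel1l, which rose (0.57, 0.31, 0.98 and 0.36). Of 46 proteasome genes, whose median was -0.13, 2 fell, Psmd12 (-0.71 ± 0.46) and the activator gene Psme4 (-0.67 ± 0.29), 0 rose, and 11 lay above 0, with medians of -0.22, -0.11, -0.07 and -0.08 by array. Of 63 lysosomal genes 3 fell and 0 rose, with the alpha-galactosidase gene Gla at -0.58 ± 0.36. Bcap29 and Hspa4 lost their calls without heavy array 2 or 4 (adjusted p from 0.0526 to 0.0687). Psmd12 lost its call without heavy array 3 or 4 (adjusted p from 0.0529 to 0.0623). Hspa1a lost its call without heavy array 1, 2 or 4 (adjusted p from 0.0540 to 0.0820). Hspa4l lost its call without heavy array 1, 2, 3 or 4 (adjusted p from 0.0542 to 0.0969). Gla lost its call without heavy array 1, 2, 3 or 4, or total array 2 (adjusted p from 0.0506 to 0.0796). Sel1l lost its call without heavy array 1, 2, 3 or 4, or total array 2 or 3 (adjusted p from 0.0605 to 0.102). Bag1 lost its call without heavy array 1, 2 or 4, or total array 1, 2, 3 or 4 (adjusted p from 0.0518 to 0.125). Hspa4l, Os9, Psmd12 and Psme4 were at -0.57, -0.47, -0.36 and -0.40 as the mean of all their probes. Sel1l was at 0.23 and not called as the mean of all its probes (adjusted p = 0.0880).

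In the actin cytoskeleton, 9 of 71 genes rose and 5 fell, with a median of 0.04 and 0.16, -0.07, 0.08 and -0.07 by array. Dstn, which severs filaments, gave 2.35, 0.69, 0.52 and 0.60 (1.04 ± 0.88, adjusted p = 0.0394), far higher on array 1 than on the others. Rdx, which ties actin to the membrane, gave 1.47, 0.57, 1.38 and 0.83 (adjusted p = 0.0132), Arpc1b, a subunit of the Arp2/3 nucleator, 0.61, 0.80, 1.36 and 0.95, and Mylk, the kinase of myosin light chain, 1.25, 0.61, 0.08 and 0.99. The small GTPase gene Rhob gave 0.45, 0.59, 0.63 and 0.74. Mylk was near 0 on array 3, and Rhob was even over the arrays. Arpc1a, which encodes the alternative form of the Arpc1b subunit, fell (-0.72, -0.52, -1.30 and -0.58, -0.78 ± 0.36, adjusted p = 0.0105), so the 2 forms moved in opposite directions on all arrays. Myh9, non-muscle myosin, gave -1.67, -0.67, -0.39 and -0.76, and Palld, which bundles filaments, -0.71, -0.56, -0.73 and -0.54. Rdx and Palld lost their calls without heavy array 4 (adjusted p from 0.0501 to 0.0576). Myh9 lost its call without heavy array 2 or 4 (adjusted p from 0.0600 to 0.0840). Rhob lost its call without heavy array 2, 3 or 4 (adjusted p from 0.0624 to 0.113). Dstn lost its call without heavy array 2 or 4, or total array 1, 2 or 3 (adjusted p from 0.0562 to 0.0822). Arpc1b lost its call without heavy array 2, 3 or 4, or total array 2 or 3 (adjusted p from 0.0504 to 0.108). Mylk lost its call without heavy array 1, 2 or 4, or total array 2 or 3 (adjusted p from 0.0554 to 0.136). Rhob was at 0.91 with processed signals. Rdx and Palld were at 0.64 and -0.34 as the mean of all their probes.

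Of 92 genes of ESCRT, endocytosis and Rab proteins, 7 rose and 7 fell. Beside Eps15 and Chmp3, the clathrin light chain gene Cltb rose (0.98, 0.73, 1.32 and 0.89, 0.98 ± 0.25, adjusted p = 0.00353), and so did the endosomal GTPase genes Rab4a (0.64, 0.31, 0.54 and 0.40) and Rab9 (0.62, 0.28, 0.64 and 0.40). The adaptor genes of clathrin coats fell: Ap1b1 (-0.98, -1.03, -0.29 and -1.03, adjusted p = 0.00880), Ap1m1 (-0.22, -0.53, -0.86 and -0.50) and Ap2a1 (-0.04, -0.68, -1.16 and -0.88). Ap2a1 was near 0 on array 1, and Ap1b1 was the least changed on array 3. Of 17 connexin, pannexin and tight junction genes, which connect neighbouring cells, 4 rose and 0 fell, with a median of 0.23 (between 0.21 and 0.25 under the other scalings) and 0.19, 0.13, 0.09 and 0.17 by array. Beside Gjb2, F11r, a junctional adhesion molecule, gave 0.72, 0.39, 0.46 and 0.32. Gja3 gave 0.17, 0.50, 0.50 and 0.81, with Cy3 signal well above background on 3 of 4 arrays. Ap1b1 lost its call without heavy array 4 (adjusted p = 0.0564). Ap1m1 lost its call without heavy array 2, 3 or 4 (adjusted p from 0.0614 to 0.0899). Rab4a and F11r lost their calls without heavy array 1, 2, 3 or 4 (adjusted p from 0.0555 to 0.0857). Gja3 lost its call without heavy array 2, 3 or 4, or total array 2 (adjusted p from 0.0626 to 0.157). Rab9 lost its call without heavy array 1, 2, 3 or 4, or total array 2 (adjusted p from 0.0506 to 0.0867). Ap2a1 lost its call without heavy array 2, 3 or 4, or total array 2 or 3 (adjusted p from 0.0568 to 0.140). Gja3 was at 1.35 with processed signals. Rab9 was at 0.31 and not called with processed signals (adjusted p = 0.0718).

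Genes of the Wnt pathway, which guides cell fate and growth, were called higher in 7 of 48 cases and lower in 3, with a median of 0.05 and 0.12, 0.00, 0.08 and 0.02 by array. The ligand genes Wnt9a (0.61, 0.67, 0.58 and 0.33, adjusted p = 0.00799) and Wnt11 (0.54, 0.58, 1.69 and 0.94), the receptor genes Fzd6 (0.88, 0.60, 1.1 and 0.47, adjusted p = 0.00953) and Fzd3 (0.49 ± 0.17), the nuclear effector Lef1 (0.60, 0.86, 0.18 and 0.90) and the antagonists Dkk2 (0.51 ± 0.24) and Dkk3 (0.85, 0.59, 0.61 and 0.94) rose. The antagonist Sfrp2 (-1.22, -1.09, -0.30 and -0.75), the scaffold Apc (-0.58 ± 0.20) and the corepressor Tle2 (-0.46 ± 0.11) fell. Fzd3 and Dkk3 had Cy3 signal well above background on 3 of 4 arrays. Wnt11 was highest on array 3, where Lef1 and Sfrp2 were the least changed. Of 40 homeobox genes, which hold positional identity in fibroblasts, 6 rose and 1 fell, and the median was 0.14 (0.07 to 0.17 under the other scalings) and 0.07, 0.13, 0.11 and 0.08 by array. Hoxb7 gave 1.08, 0.94, 1.55 and 1.14 (1.18 ± 0.26, adjusted p = 0.00122), Prrx2 1.33, 0.69, 1.02 and 0.87 (adjusted p = 0.00461) and Hoxa5 0.41, 0.57, 0.75 and 0.63 (adjusted p = 0.00698). Cy3 was well above background on 3 of 4 arrays for Hoxa5. These 3 were higher on every array, Hoxb7 and Hoxa5 most on array 3, and Six5 fell (-0.43 ± 0.21). Dkk2 and Dkk3 lost their calls without heavy array 4 (adjusted p from 0.0693 to 0.0719). Lef1 and Tle2 lost their calls without heavy array 2 or 4 (adjusted p from 0.0582 to 0.0907). Apc lost its call without heavy array 3 or 4 (adjusted p from 0.0608 to 0.0849). Sfrp2 lost its call without heavy array 1, 2 or 4 (adjusted p from 0.0584 to 0.0908). Six5 lost its call without heavy array 2, 3 or 4 (adjusted p from 0.0605 to 0.0985). Wnt11 lost its call without heavy array 2, 3 or 4, or total array 2 (adjusted p from 0.0528 to 0.105). Fzd3 lost its call without heavy array 2, 3 or 4, or total array 2 or 3 (adjusted p from 0.0598 to 0.162). Wnt9a, Fzd3, Dkk2, Dkk3, Hoxa5 and Six5 were at 0.96, 0.95, 0.90, 1.43, 1.52 and -0.67 with processed signals. Apc was at -0.35 as the mean of all its probes. Fzd3 was at 0.31 and not called as the mean of all its probes (adjusted p = 0.0530).

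Retinoic acid, which stroma supplies to immune cells, is made from retinol by retinol and aldehyde dehydrogenases. Of 25 genes of its metabolism, 3 rose and 1 fell. Those that rose were Aldh1a3, the dehydrogenase gene Rdh10 (0.54, 0.79, 1.39 and 0.89, adjusted p = 0.00685) and the dehydrogenase/reductase gene Dhrs3 (0.74, 0.45, 1.68 and 0.83, adjusted p = 0.0143). Aldh2 (-0.43, -0.56, -0.58 and -0.53), a mitochondrial aldehyde dehydrogenase, fell. Retinoic acid itself was not measured. Rdh10 and Dhrs3 were highest on array 3, and Aldh2 was even over the arrays. Of 46 genes of TGF-beta and BMP signalling 2 rose, the transducer Smad2 (0.65, 0.65, 1.25 and 0.90, adjusted p = 0.00377) and the BMP target Id1 (0.21, 0.48, 0.66 and 0.56). Of 62 genes of the MAP kinase cascade and its phosphatases, 6 rose and 3 fell, with a median of 0.10 and 0.28, 0.10, 0.09 and 0.03 by array. Hras gave 1.24, 0.48, 1.00 and 0.60 (adjusted p = 0.0127), Map2k4 0.48, 0.45, 0.70 and 0.47, the phosphatase gene Dusp2 0.47, 1.74, 0.79 and 1.31 (adjusted p = 0.0225) and the immediate early gene Egr1 0.78, 1.19, 1.33 and 1.12 (adjusted p = 0.0186). The scaffold gene Mapk8ip3 (-0.89, -0.53, -0.73 and -0.46), Araf (-0.42, -0.45, -0.87 and -0.45) and Mapkapk2 (0.09, -0.97, -1.07 and -0.85) fell. Mapkapk2 was above 0 on array 1, and Hras was higher on arrays 1 and 3 than on arrays 2 and 4. Further probes of Mapk8ip3 (0.30 ± 0.13) and Mapkapk2 (0.03 ± 0.56) lay on the other side of 0. The G protein subunit gene Gng10 rose (1.19, 0.64, 0.63 and 0.63, adjusted p = 0.00881). Dhrs3 and Map2k4 lost their calls without heavy array 4 (adjusted p from 0.0513 to 0.0607). Aldh2, Dusp2 and Araf lost their calls without heavy array 2 or 4 (adjusted p from 0.0539 to 0.100). Id1 and Egr1 lost their calls without heavy array 2, 3 or 4 (adjusted p from 0.0595 to 0.127). Mapkapk2 lost its call without heavy array 2, 3 or 4, or total array 1, 2 or 3 (adjusted p from 0.0627 to 0.161). Mapk8ip3 and Mapkapk2 were at -0.18 and -0.33 and not called as the mean of all their probes (adjusted p = 0.168 and 0.259).

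Among 72 cell cycle genes, 7 rose and 1 fell. Beside Ccng2, Ccnh, the cyclin of the kinase that activates other cyclin-dependent kinases, gave 0.60, 0.65, 1.29 and 0.94 (0.87 ± 0.31, adjusted p = 0.00644), though 1 of its 3 further probes gave -0.38 ± 0.07. Cdca3, which helps entry into mitosis, gave 0.55, 0.52, 1.21 and 0.96 (adjusted p = 0.00644), the mitotic survivin gene Birc5 1.04, 0.49, 0.78 and 0.69 (adjusted p = 0.00497), and the centrosomal kinase gene Nek2 1.36, 0.37, 0.71 and 0.66 (adjusted p = 0.0161). All 4 of these were highest on array 1 or array 3. The cyclin D partner Cdk6 gave 0.31, 1.03, 0.65 and 0.91, with arrays 2 and 4 highest, and Ccnd1, which encodes cyclin D1, was not called (0.39, -0.33, -0.44 and -0.25, adjusted p = 0.501). The median of the list was 0.10, between 0.02 and 0.12 under the other scalings, and 0.20, 0.00, 0.08 and 0.12 by array. Of 46 genes of DNA replication and nucleotide supply, 2 rose, among them Dut, which removes dUTP (0.37 ± 0.13), and Ung, which cuts uracil out of DNA, fell (-0.46 ± 0.16). Among 55 p53 targets and regulators of apoptosis, 5 rose and 3 fell, among them the survival gene Bcl2l1 (0.87, 0.58, 0.68 and 0.70, adjusted p = 0.00357), whose further probes gave -0.23 ± 0.52 and -0.02 ± 0.08, the cell death gene Pmaip1 (1.40, 0.76, 0.55 and 0.50), which rose, and the p53 target Phlda3 (-0.39, -0.73, -0.52 and -0.77), which fell. Nek2 and Phlda3 lost their calls without heavy array 4 (adjusted p from 0.0562 to 0.0626). Pmaip1 lost its call without heavy array 2 or 4 (adjusted p from 0.0513 to 0.0618). Ung lost its call without heavy array 2, 3 or 4 (adjusted p from 0.0665 to 0.118). Cdk6 lost its call without heavy array 2, 3 or 4, or total array 2 or 3 (adjusted p from 0.0655 to 0.154). Dut lost its call without heavy array 1, 2, 3 or 4, or total array 2 or 3 (adjusted p from 0.0579 to 0.112). Dut was at 0.21 and not called with processed signals (adjusted p = 0.226). Ccnh, Cdca3 and Cdk6 were at 0.39, 0.43 and 0.39 as the mean of all their probes. Bcl2l1 was at 0.15 and not called as the mean of all its probes (adjusted p = 0.30).

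Chromatin regulators were called in both directions, 6 of 56 higher and 4 lower. Beside Ss18, the high mobility group gene Hmga2 rose (0.51, 0.71, 0.90 and 0.57, 0.67 ± 0.17, adjusted p = 0.00550), as did Hmgn2 (1.46, 0.71, 0.60 and 0.85) and the BAF subunit gene Dpf2 (0.16, 0.31, 0.67 and 0.52). Hmgn2 was highest on array 1 and lowest on array 3, the reverse of Dpf2. The histone demethylase gene Kdm5b (-0.68, -0.65, -0.26 and -0.44), the DNA methyltransferase gene Dnmt1 (-0.64, -0.44, -0.60 and -0.33) and Hmgn3 fell, as did Arid2 (-0.67 ± 0.44), for which further probes gave 0.16 ± 0.44 and 0.01 ± 0.32. Of 69 splicing factor genes 3 rose and 4 fell. Hnrnph1, which steers splice site choice, gave 1.92, 0.91, 0.62 and 1.00 (1.11 ± 0.56, adjusted p = 0.00794), and the snRNP protein genes Prpf3 (-0.53, -0.33, -0.44 and -0.31), Prpf6 (-0.62, -0.65, -0.01 and -0.67) and Prpf8 (-0.53, -0.63, -0.18 and -0.46) fell. Prpf6 and Prpf8 were the least changed on array 3, and Hnrnph1 was highest on array 1. Of 66 mRNA decay genes 4 rose and 4 fell. The deadenylase gene Cnot6 rose (1.61, 0.56, 0.93 and 0.54, adjusted p = 0.0150), while Cnot1, the scaffold of the same complex (-0.55, -0.90, -0.41 and -0.70), and the nonsense-mediated decay helicase Upf1 (-1.16, -0.61, -0.79 and -0.62, adjusted p = 0.00685) fell. Hmgn2 and Hmgn3 lost their calls without heavy array 4 (adjusted p from 0.0591 to 0.0650). Dnmt1 lost its call without heavy array 2 (adjusted p = 0.0534). Kdm5b and Cnot1 lost their calls without heavy array 2 or 4 (adjusted p from 0.0578 to 0.0738). Prpf3 lost its call without heavy array 1, 2 or 4 (adjusted p from 0.0507 to 0.0714). Dpf2 lost its call without heavy array 2, 3 or 4, or total array 2 or 3 (adjusted p from 0.0578 to 0.142). Arid2 lost its call without heavy array 1, 3 or 4, or total array 2 or 3 (adjusted p from 0.0543 to 0.0975). Prpf6 lost its call without heavy array 1, 2 or 4, or total array 1, 2 or 3 (adjusted p from 0.0544 to 0.167). Prpf8 lost its call without heavy array 1, 2 or 4, or total array 1, 2 or 4 (adjusted p from 0.0521 to 0.172). Arid2 and Prpf8 were at -0.17 and -0.29 and not called as the mean of all their probes (adjusted p = 0.351 and 0.274).

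Some mRNAs have been reported as sensitive to eIF4E or as carrying internal ribosome entry sites, and 37 of these were measured. Among them 4 rose and 3 fell (18.9% called), and the median, at 0.02, was -0.02 when arrays were centred on the tested genes. The heparin-binding growth factor gene Fgf2 gave 0.27, 0.77, 1.08 and 1.11 (adjusted p = 0.00847), and Bcl2l1, Birc5 and Bag1, which oppose cell death, rose as given above. The growth factor receptor gene Igf1r gave -0.89, -0.55, -0.57 and -0.71 (-0.68 ± 0.16, adjusted p = 0.00469) and the mesenchymal transcription factor gene Twist1 -0.29, -0.58, -0.60 and -0.48 (adjusted p = 0.0132), and Srebf1 was also lower. Myc (-0.50, -0.20, -0.20 and -0.18), Odc1 (-0.37, 0.08, -0.08 and -0.02), Vegfa (0.01, 0.09, 0.50 and 0.14) and Ccnd1, textbook examples of eIF4E-sensitive mRNAs, were not called (adjusted p = 0.156, 0.703, 0.272 and 0.501). Their further probes differed in part. Those of Vegfa gave 0.12 ± 0.33 and 0.75 ± 0.07, and those of Odc1 0.67 ± 0.60 and 0.43 ± 0.42. Further Myc probes gave -0.14 ± 0.31 and -0.03 ± 0.25. Fgf2 lost its call without heavy array 4 (adjusted p = 0.0534). Twist1 and Srebf1 lost their calls without heavy array 2 or 4 (adjusted p from 0.0536 to 0.0649). Bag1 lost its call without heavy array 1, 2 or 4, or total array 1, 2, 3 or 4 (adjusted p from 0.0518 to 0.125). Igf1r was at -0.43 as the mean of all its probes.

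Set beside total RNA, 692 of the 706 higher genes (98.0%) and 579 of the 584 lower genes (99.1%) lay on the same side of 0 there, against 70.9% of all measured genes. Both fractions had Eif4g3 siRNA in Cy5, so a dye bias shared by the fractions cannot be told apart from a shared change. Of all measured genes 631 (4.56%) were called in total RNA, among them 194 of the higher and 201 of the lower genes. List medians in total RNA, with heavy polysome RNA in brackets, were -0.36 (-0.30) for aminoacyl-tRNA synthetases and -0.215 (-0.15) for matrix proteins. They were -0.17 (-0.10) for sterol and fatty acid genes and 0.28 (0.17) for interferon-stimulated genes. For connexins and tight junctions they were 0.06 (0.23), for homeobox genes 0.002 (0.14), and for all measured genes -0.045 (0.02). The difference heavy polysome minus total RNA was tested for 14474 genes, and limma called 0 of them (754, or 5.21%, at an unadjusted p under 0.05). Values of named genes with the smallest unadjusted p for that difference are therefore given side by side, as a description. Arpc1a was lower in heavy polysomes (-0.78 ± 0.36) and stood at 0.17 ± 0.22 in total RNA (difference -0.95, 95% interval -1.39 to -0.51, unadjusted p = 0.000719). Igf1r was at -0.68 ± 0.16 and -0.16 ± 0.15 (unadjusted p = 0.00298), and Col5a3 at -0.77 ± 0.14 and -0.28 ± 0.16 (unadjusted p = 0.00444). Sdc3 was at 0.44 ± 0.12 and -0.16 ± 0.26 (unadjusted p = 0.00298), Hmga2 at 0.67 ± 0.17 and 0.18 ± 0.15 (unadjusted p = 0.00502), and Chmp3 at 1.47 ± 0.39 and 0.69 ± 0.33 (unadjusted p = 0.00666). The adjusted p of these 6 differences was 0.847. For Fbn1 (1.68 ± 0.54 and 1.77 ± 0.31) and Dnajc1 (-1.58 ± 0.20 and -1.59 ± 0.32) the fractions gave nearly the same mean, with 95% intervals of the difference of -0.69 to 0.50 and -0.39 to 0.41. Sdc3 lost its call without heavy array 1, 2, 3 or 4, or total array 2 (adjusted p from 0.0615 to 0.0939).

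**Figure D5:**
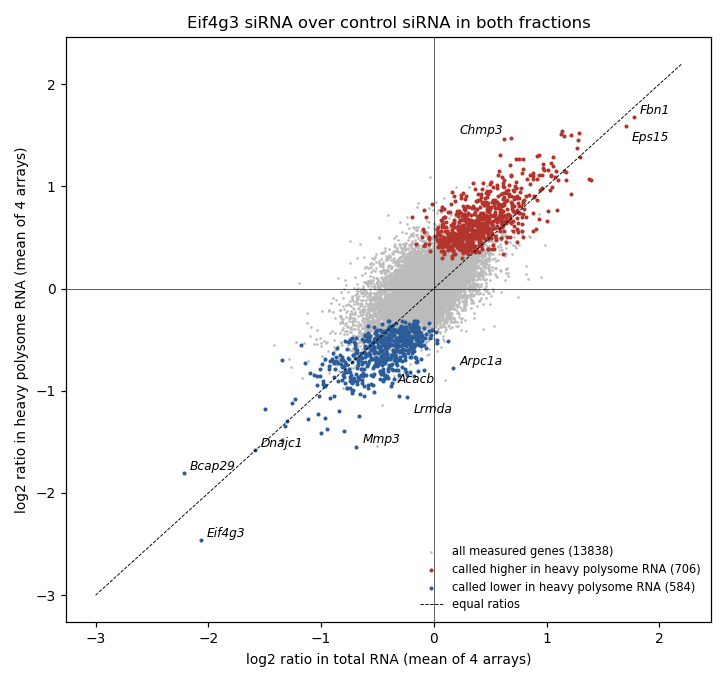
Mean log2 ratio of Eif4g3 siRNA over control siRNA in heavy polysome RNA (vertical axis) against that in total RNA (horizontal axis) for the 13838 measured genes. Red and blue points are genes called higher (706) and lower (584) in heavy polysome RNA, and the dashed line marks equal ratios; 0 genes were called for the difference between fractions.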

How the data were processed

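Heavy polysome RNA was hybridised to 4 Agilent arrays with Cy3 and Cy5 channels, and total RNA to 4 more. Per the file headers, spots were read with Feature Extraction 10.7.3.1 (10.5.1.1 for total RNA array 2), and the deposited values used here are each channel's mean and background intensity and probe positions in mm8. The series matrix holds, per the authors' deposited table, log2 ratios of Cy5 over Cy3, used as an alternative. Per the file headers, the scanner files also hold processed intensities and their log10 ratio.

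Intensities were corrected with normexp (offset 50), normalised within arrays by loess (span 0.3) and tested with limma 3.58.1 in R 4.3.3. Both fractions entered the fit, with 1 coefficient each, and the heavy polysome mean ratio was set against 0 in a two-sided test, adjusted by Benjamini-Hochberg over 14474 genes. The brightest probe represented a gene. Control spots did not enter, 0 spots were saturated, and precision is limited by how few arrays there are. Names came from RefSeq for 80.2% of probes.

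Named genes are Eif4g3, the 20 highest and 20 lowest called, called list members, known list members that were not called, and the 5 least variable in each direction with a fold of at least 1.5. The members and lists were chosen with earlier results of these data known. Same-numbered arrays of both fractions did not deviate together (r = -0.017, 0.17, -0.11 and -0.30 for numbers 1 to 4), and numbers were not used as pairs in the main fit. This cannot show that the samples were unpaired, as some arrays of different numbers had an r of larger size. Between arrays of different numbers r ranged from -0.51 (total RNA array 4 with heavy polysome array 2) to 0.47 (total RNA array 1 with heavy polysome array 2). The main fit took the arrays as independent. The fit was tested on simulated data. Promoter windows were held for 71.4% of genes, under 80%, so a check of base composition was void. Scaling, background, filter, probe, block, slide and array choices were varied. Some named genes are not reported here.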

Additional observations from a re-analysis of the deposited data

Results flagged for a closer look

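For 22 of 227 named genes, 1 heavy polysome array stood apart from the other 3 by Dixon's criterion for 4 values. Chance alone flags about 1 in 20 groups of 4 independent values with equal spread. These arrays do not meet that, as arrays 2 and 4 correlated at 0.883 and ratios spread more widely on arrays 1 and 3. Most of the genes were also chosen by their values, so the count cannot be compared with that rate. Array 1 was farther from 0 than the others for Akr1b8 (-1.30 against -0.90 to -0.82), Os9 (-1.07 against -0.63 to -0.62), Myc (-0.50 against -0.20 to -0.18) and Gng10 (1.19 against 0.63 to 0.64). The same held for Dstn (2.35 against 0.52 to 0.69). Array 1 was nearer to 0 than the others or on the other side for Nup98 (-0.74 against -0.90 to -0.88), Tnxb (-0.47 against -0.79 to -0.74), Ung (-0.22 against -0.55 to -0.53) and Rps27l (0.15 against 0.44 to 0.48). Array 2 was nearer to 0 than the others or on the other side for Anpep (-0.68 against -1.11 to -1.05). Array 3 was farther from 0 than the others for Ctla2a (-2.19 against -0.86 to -0.63), Ctps2 (-1.94 against -1.11 to -0.99), Wars (-1.21 against -0.61 to -0.57) and Hspa4 (-1.05 against -0.48 to -0.46). The same held for Cdh13 (-0.94 against -0.61 to -0.54), Araf (-0.87 against -0.45 to -0.42), Ppip5k2 (-0.70 against -0.57 to -0.55) and Tle2 (-0.62 against -0.41 to -0.41). The same held for Map2k4 (0.69 against 0.45 to 0.48). Array 3 was nearer to 0 than the others or on the other side for Ap1b1 (-0.29 against -1.03 to -0.98), Prpf6 (-0.014 against -0.67 to -0.62) and Sparc (0.24 against -0.50 to -0.39). Values are log2 ratios, the distant array first and the range of the others after it. Myc and Sparc were not called, and the other genes here were.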

How the results depend on the processing

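The count of 1290 called genes was 0 with arrays centred on all spots (370 at an unadjusted p under 0.05) and 196 with arrays centred on the tested genes. It was 2049 from Feature Extraction's processed signals, 2051 from the series matrix, 436 from the heavy polysome arrays alone, 434 with arrays 2 and 4 averaged, 844 with trend and robust eBayes, 680 with a fold of at least 1.5 and 2591 with slide as a random block. Within slides it was 21 (arrays 1 and 2) and 220 (arrays 3 and 4), and within slide positions, an alternative chosen after seeing the data, 103 (arrays 1 and 3) and 593 (arrays 2 and 4). Leaving out 1 array gave 337 to 1537 calls, fewest without heavy polysome arrays 4 (337) and 2 (542). With the replicate number as a block there were 585 calls. Same-numbered arrays did not deviate together, which cannot show whether the numbers pair the samples. The other settings run (scale normalisation, no background correction, both channels above background, no filter, mean of probes) left the count within 1.5 times. The share of calls that were higher was 54.7%, and 43.9% (86 of 196) when centred on the tested genes. Eif4g3 kept its call in all settings but centring on all spots (-2.44, adjusted p = 0.916), where the median of the tested genes was 1.19 on array 1 and -0.06 to -0.53 on the others. The count for heavy polysome minus total RNA was 0 in all settings run. The direction of each named called gene held in the settings run, and the cause of the changes in count was not tested. Of the 193 called genes named in the text, processed signals gave a mean over 1.5 times larger in 14 and smaller in 5, the series matrix 13 and 2, and the mean of all probes 0 and 36. Gna14, at -1.41, was at -2.89 with processed signals. Of the 3459 dimmest genes 3.35% were called, against 10.2% to 12.5% in brighter groups, and their median SD between arrays was 0.158 against 0.28 to 0.345.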
